A study of Danio rerio with 9 samples.

Results

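The 10 genes studied here belong to the matrilin family and to other small cartilage matrix proteins. They were followed across 3 cell populations sorted from zebrafish in a series on the notochord sheath. They were chosen with earlier results of these data known, as matn1, both matn3 paralogs, matn4, comp, chad, epyc, snorc, cnmd and otos2. By symbol they were matched to 10 of the 32266 Ensembl gene identifiers counted. All 10 members passed the filter on low counts that left 19039 genes for testing. The series was made to ask how the notochord sheath is divided into segments during spine patterning, and it compares entpd5a+ cells, cells positive for both col9a2 and entpd5a (double-positive) and col9a2+ cells. Fish were 13 days old, counted from fertilization, and of strain EK; 3 libraries were made from each population. The genotype is labelled wild type for all 9 libraries, while the series' design text calls the fish transgenic. The transgenes behind the sort, and whether the libraries came from separate animals or pools, are not given in the sources used here. The p-values therefore set differences against the spread between these libraries alone. Whether that spread covers variation between animals is not known.

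The notochord is a rod of vacuolated cells wrapped in a sheath of epithelial cells that secrete a thick collagen-rich matrix. In teleost fish this sheath first carries a cartilage-like programme, and rings of it later turn to mineral-forming domains that prefigure the vertebral centra. Matrilins are adaptor proteins with von Willebrand A domains that link collagen fibrils to proteoglycans in cartilage, as known mainly from mammals and chick. COMP and the leucine-rich repeat proteins chondroadherin (chad) and epiphycan (epyc) bind collagen or occur with it in mammalian cartilage, snorc encodes a small membrane proteoglycan of mouse cartilage, and cnmd encodes chondromodulin, a cartilage glycoprotein known in mammals to restrain vessel growth. otos2 encodes a relative of otospiralin, a small secreted protein known from the mammalian inner ear.

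The libraries held 39955994 to 81471212 counts each and 17850 to 21996 genes with a count. Levels are given as CPM, counts scaled to library size with TMM factors, with the 3 libraries of a population in the order of their numbers; gene lengths were not used, so levels are compared between populations and not between genes. The sorted genes followed the labels in part. COL9A2 had 429, 73.1 and 64.7 CPM in entpd5a+ cells, 811, 1580 and 1426 CPM in double-positive cells and 7738, 11560 and 9398 CPM in col9a2+ cells. ENTPD5 had 5678, 3955 and 3142 CPM in entpd5a+ cells, 10370, 18680 and 13080 CPM in double-positive cells and 253, 452 and 129 CPM in col9a2+ cells. Thus entpd5a+ library 1 had the most COL9A2 of its population. Of 12 notochord markers, summed levels were 7949 to 17240 CPM in entpd5a+ cells, 38150 to 58830 CPM in double-positive cells and 7786 to 10720 CPM in col9a2+ cells, with noto, a defining transcription factor of the early notochord, at 0 throughout. Summed levels of 11 osteoblast markers were 61060 to 113400 CPM in entpd5a+ cells, 3390 to 18450 CPM in double-positive cells and 4351 to 10300 CPM in col9a2+ cells. In entpd5a+ cells the sum came mostly from the collagen I genes col1a1a, COL1A1 and COL1A2 (means of 32650, 15120 and 23750 CPM). SP7 averaged 199.5, 24.88 and 9.076 CPM in the 3 populations in that order, while bglap averaged 0.097, 0.094 and 0.022 CPM and failed the count filter. Whether all sorted cells were sheath cells was not tested. The 4 libraries with at least 67788360 counts (entpd5a+ 2 and 3, double-positive 3, col9a2+ 3) were also the 4 with hsp70l, a heat-shock gene, at 17960 CPM or more, against at most 909 CPM in the other 5, so depth and heat-shock level cannot be told apart.

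The 10 members together took far less of the counts of entpd5a+ libraries than of the others. Their share was 0.233%, 0.0867% and 0.139% in entpd5a+ libraries, 1.67%, 2.19% and 1.60% in double-positive libraries and 4.09%, 5.03% and 2.96% in col9a2+ libraries. The means were 0.153% ± 0.074 in entpd5a+ cells, 1.82% ± 0.323 in double-positive cells and 4.03% ± 1.04 in col9a2+ cells (SD, n = 3 each), and no library of one population reached the range of another. In sorted bulk samples, fewer cells of a type and less RNA per cell cannot be told apart.

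**Figure D1:**
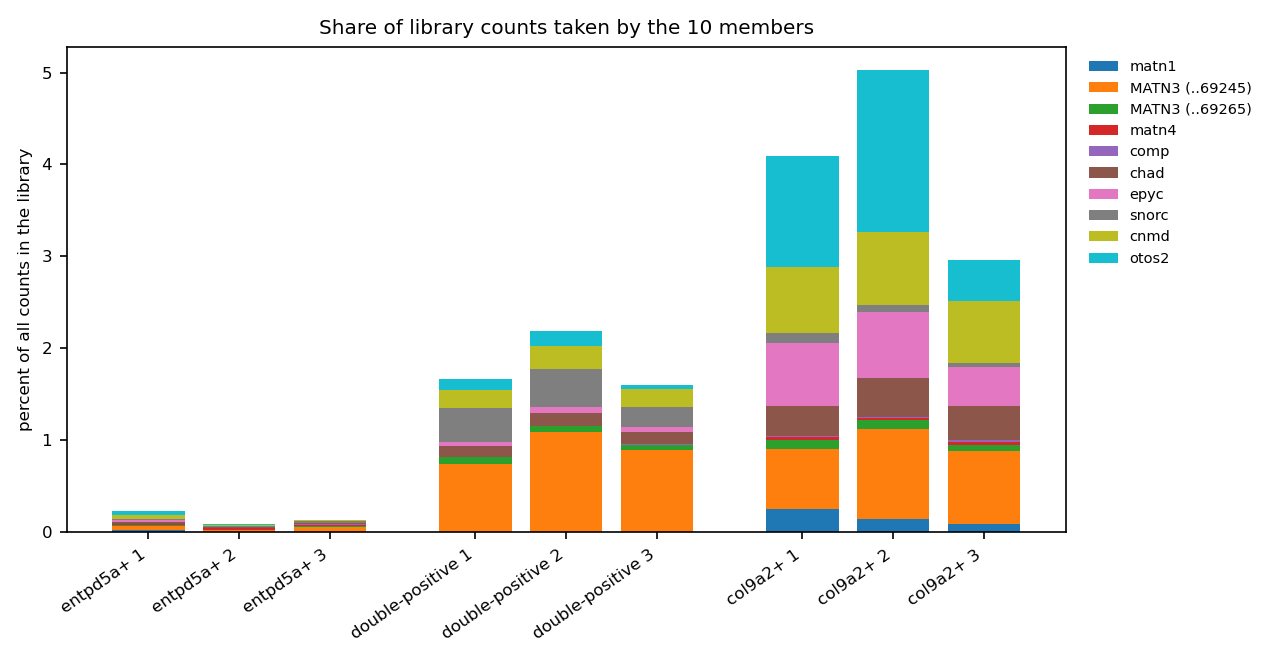
Percent of all counts in each of the 9 libraries taken by the 10 members, stacked by gene. The entpd5a+ libraries lie between 0.0867% and 0.233%, below the double-positive libraries (1.60% to 2.19%) and the col9a2+ libraries (2.96% to 5.03%).

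Over the 3 populations together, 9 of the 10 members differed, against 9.41% of all genes tested (edgeR's quasi-likelihood F test, adjusted p under 0.05 by Benjamini-Hochberg over all genes). The exception was otos2, with an adjusted p of 0.0508. Between entpd5a+ and col9a2+ cells 7 members fell and none rose; 5.02% of all genes were called, 2.68% higher and 2.34% lower. All 10 members lay lower in every entpd5a+ library than in every col9a2+ library, while 24.7% of all genes separated those libraries in either direction. The median log2 difference was -4.08 over the members and 0.02 over all genes. Between double-positive and col9a2+ cells 1 member rose and 2 fell, with 3.54% of all genes called, 1.68% higher and 1.86% lower. In that comparison 1 member lay above without overlap, 6 below and 3 overlapped, against 24.4% of all genes separated, and the members' median was -1.46 against 0.01. Between entpd5a+ and double-positive cells 1 member rose and 6 fell, with 6.51% of all genes called, 3.06% higher and 3.45% lower. There 1 member lay above, 8 below and 1 overlapped, against 26.1% of all genes separated, with medians of -3.15 and 0.07. The 3 comparisons share libraries in pairs, so their values are set side by side and are not independent. Because the members were chosen with earlier results of these data known, the shares of all genes give scale and are no test of an excess.

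The double-positive and col9a2+ libraries with the same number deviated weakly together from their population means (r = 0.181, 0.219 and 0.332). Library 3 was the deeper one with high hsp70l in both populations. A block by number therefore takes in that split, and deviations of libraries with unlike numbers were not compared. A fit of these 6 libraries with the number as a block called 8 of the 10 members, 1 higher and 7 lower, against 12.7% of all genes in that fit. The fit of all 9 libraries without the block called 3 members. That count was 1 when col9a2+ library 1, 2 or 3 or double-positive library 2 was left out. Without double-positive library 1 or 3 or entpd5a+ library 2 it was 2. The 6 libraries fitted without the block called the same 3 members and epyc. All 9 libraries fitted with the block called the same 3 members. With the block, comp, chad, epyc, cnmd and otos2 thus passed in the 6-library fit and not in the 9-library fit.

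**Figure D2:**
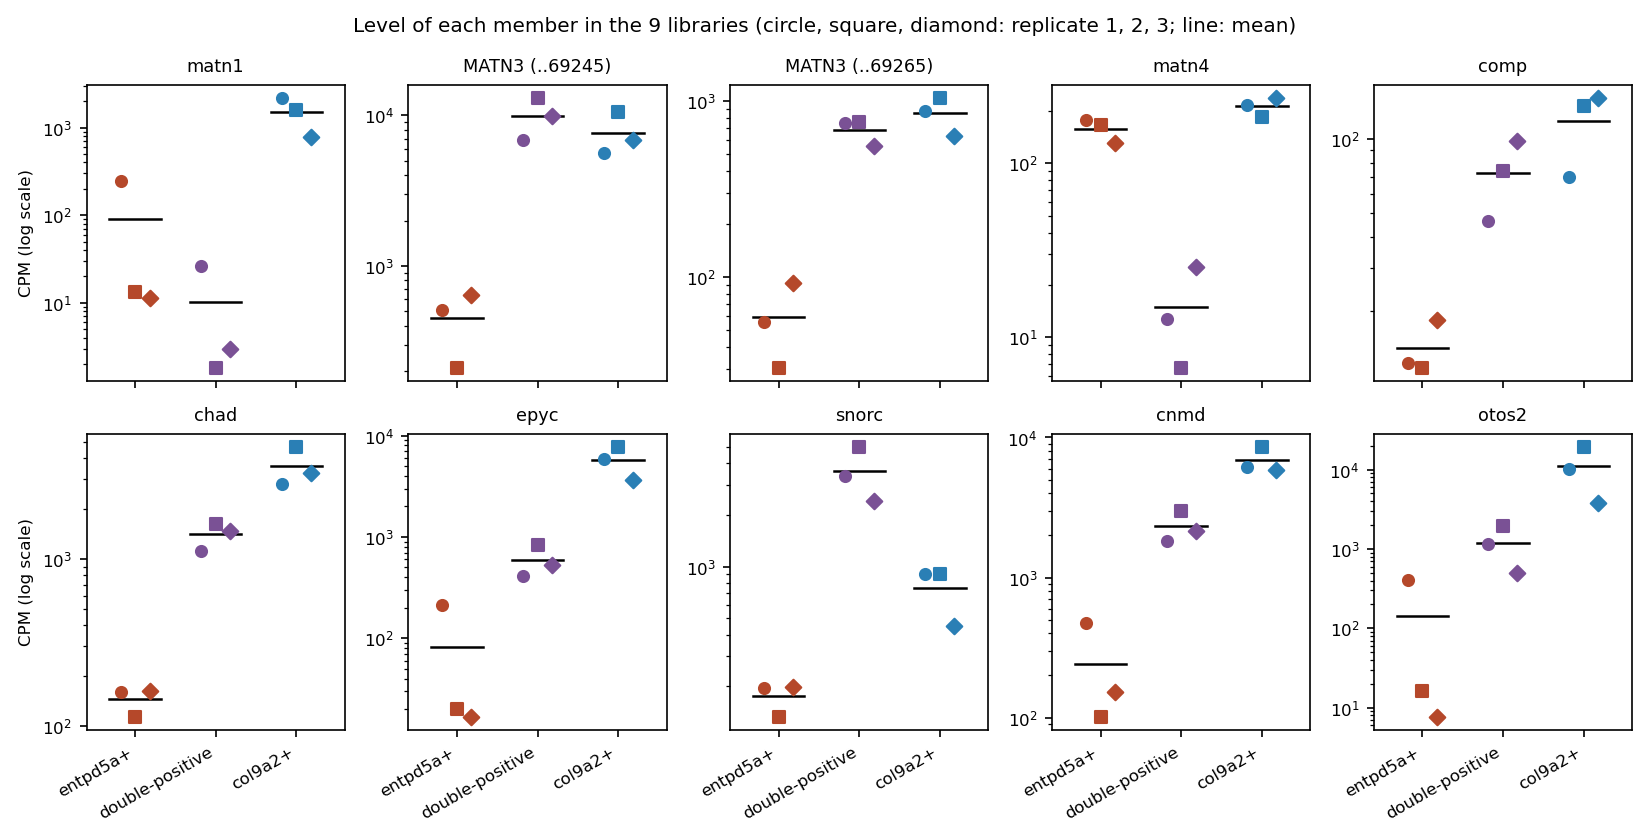
Level of each member in CPM on a log scale, by population, with circles, squares and diamonds for libraries 1, 2 and 3 and a line at the mean. By mean, every member except matn1 and matn4 is lowest in entpd5a+ cells, while matn1 and matn4 are lowest, and snorc and MATN3 (ENSDARG00000069245) highest, in double-positive cells.

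**Figure D3:**
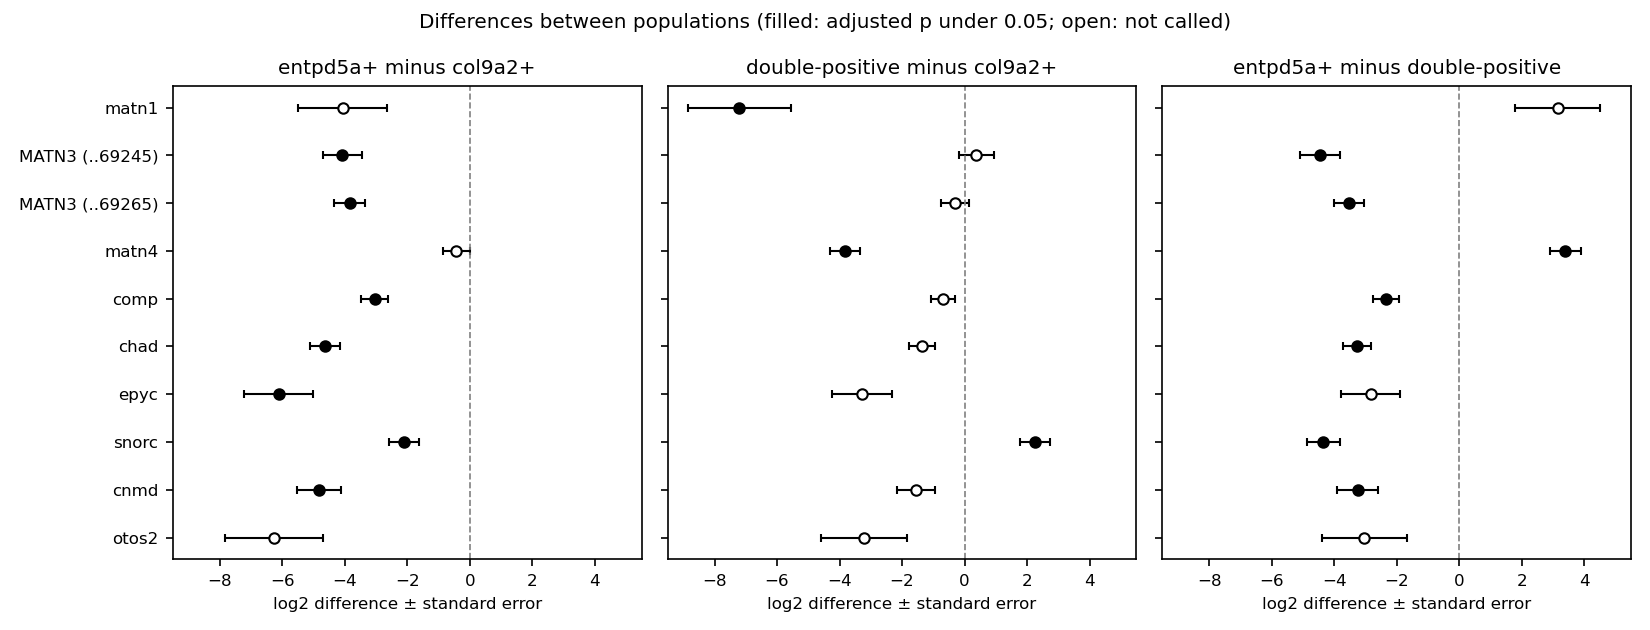
Log2 differences ± standard error for the 10 members in the 3 comparisons, filled where the adjusted p was under 0.05. In entpd5a+ minus col9a2+ all lie below 0, and in double-positive minus col9a2+ snorc and MATN3 (ENSDARG00000069245) lie above 0, the second of them not called, while matn1 and matn4 lie lowest.

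Both MATN3 genes, which encode a matrilin of the growth plate in mammals, were low in entpd5a+ cells, and the levels of each overlapped between double-positive and col9a2+ cells. The name tables give both identifiers the name MATN3 without a paralog letter, so they are named here by identifier. MATN3 (ENSDARG00000069245) had 508, 211 and 638 CPM in entpd5a+ cells, 6867, 13050 and 9911 CPM in double-positive cells and 5582, 10550 and 6871 CPM in col9a2+ cells. The entpd5a+ libraries stood apart from both other populations, whose libraries overlapped. The gene fell by 4.08 ± 0.63 on the log2 scale (17.0-fold) in entpd5a+ against col9a2+ cells, with an adjusted p of 0.0066 by edgeR's quasi-likelihood test with Benjamini-Hochberg adjustment. It fell by 4.46 ± 0.64 (22.0-fold, adjusted p = 0.00527) in entpd5a+ against double-positive cells.

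MATN3 (ENSDARG00000069265) had 55.4, 30.6 and 92.4 CPM in entpd5a+ cells, 746, 759 and 559 CPM in double-positive cells and 883, 1042 and 636 CPM in col9a2+ cells. Again only the entpd5a+ libraries lay apart. The gene fell by 3.84 ± 0.50 (14.4-fold, edgeR adjusted p = 0.004) in entpd5a+ against col9a2+ cells and by 3.53 ± 0.49 (11.6-fold, adjusted p = 0.00493) in entpd5a+ against double-positive cells. In double-positive against col9a2+ cells neither gene passed, with log2 differences of 0.37 ± 0.55 (ENSDARG00000069245, adjusted p = 0.846) and -0.31 ± 0.45 (ENSDARG00000069265, adjusted p = 0.841). With the number as a block these were 0.35 (adjusted p = 0.0537) and -0.33 (adjusted p = 0.1). The counts of ENSDARG00000069245 were 9.16, 6.91 and 6.91 times those of ENSDARG00000069265 in entpd5a+ libraries, 9.20, 17.2 and 17.7 times in double-positive libraries and 6.32, 10.1 and 10.8 times in col9a2+ libraries. The col9a2+ range overlapped both others, while the entpd5a+ range ended just below the double-positive one. How reads shared by paralogs were assigned is not given in the sources used here.

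matn4, a matrilin with a wider tissue range than cartilage in mammals, showed another order, with a minimum in double-positive cells. It had 177, 166 and 132 CPM in entpd5a+ cells, 12.8, 6.71 and 25.5 CPM in double-positive cells and 216, 184 and 238 CPM in col9a2+ cells. Every double-positive library was below every library of both other populations. matn4 fell by 3.82 ± 0.49 (14.1-fold, edgeR adjusted p = 0.00525) in double-positive against col9a2+ cells and was 3.40 ± 0.48 log2 units higher (10.5-fold, adjusted p = 0.00523) in entpd5a+ than in double-positive cells. Without double-positive library 3, these differences were -4.45 and 4.02. The difference of entpd5a+ from col9a2+ cells, -0.43 ± 0.44, did not pass (adjusted p = 0.731), although the libraries did not overlap. matn4 was the member called lower in double-positive cells than in both single-positive populations, as were 0.672% of all genes. Markers of tendon, fibroblast and sclerotome cells (8 identifiers) summed to 1380 to 1996 CPM in entpd5a+ cells, 62.3 to 235 CPM in double-positive cells and 120 to 277 CPM in col9a2+ cells. Leukocyte and osteoclast markers (7 identifiers, none at 0 in all 3 libraries of a population) summed to 54.6 to 65.5 CPM in entpd5a+ cells, 4.89 to 28.3 CPM in double-positive cells and 30.5 to 44.2 CPM in col9a2+ cells. This second sum was lowest in double-positive cells, as matn4 was, but none of its 7 markers was called in any of the 3 comparisons. CTSK had the largest means of them, with 44.54 CPM in entpd5a+, 9.72 CPM in double-positive and 25.97 CPM in col9a2+ cells. By mean, ptprc was highest in double-positive cells and ACP5 was lowest in entpd5a+ cells, while the other markers were lowest in double-positive cells. The part of either list in the result was not tested.

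matn1, also known as cartilage matrix protein, was highest in col9a2+ cells. It had 247, 13.3 and 11.4 CPM in entpd5a+ cells, 26.04, 1.82 and 2.93 CPM in double-positive cells and 2179, 1599 and 782 CPM in col9a2+ cells. Every col9a2+ library exceeded all 6 other libraries, and library 1 was the highest of each population. The lowest library, double-positive 2, still held 70 counts. matn1 fell by 7.21 ± 1.64 (148-fold, edgeR adjusted p = 0.0437) in double-positive against col9a2+ cells. With the number as a block in the 6 libraries the difference was -8.06 (adjusted p = 0.0145), and without double-positive library 1 it was -9.31. Without the block, the call was lost when col9a2+ library 1 (adjusted p = 0.114), 2 (0.0973) or 3 (0.0715) or double-positive library 2 (0.119) or 3 (0.106) was left out.

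In entpd5a+ against col9a2+ cells matn1 differed by -4.07 ± 1.42 and did not pass (edgeR adjusted p = 0.16). The level of entpd5a+ library 1 was 21.6 times the lowest of its population, and without that library the difference was -6.94 (adjusted p = 0.0244). The same library had the most COL9A2 of its population, whose part in the result was not tested. In entpd5a+ against double-positive cells matn1 differed by 3.14 ± 1.36 with overlapping libraries (adjusted p = 0.225), by 0.28 without entpd5a+ library 1 and by 5.24 without double-positive library 1. Double-positive library 1 was also the library with kdrl, an endothelial receptor gene, at 62.0 CPM, against at most 7.53 CPM elsewhere. The osteoblast markers too summed highest of its population in that library (18450 CPM). The part of either in the result was not tested.

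comp, the pentameric member of the thrombospondin family that binds collagens in mammalian cartilage, was found under a clone name that RefSeq lists as its synonym. It had 12.4, 11.9 and 18.5 CPM in entpd5a+ cells, 46.3, 73.8 and 97.8 CPM in double-positive cells and 70.26, 136 and 146 CPM in col9a2+ cells. The entpd5a+ libraries were the 3 lowest, and the remaining populations overlapped. comp fell by 3.04 ± 0.42 (8.25-fold, edgeR adjusted p = 0.00463) in entpd5a+ against col9a2+ cells. It fell by 2.35 ± 0.41 (5.10-fold, adjusted p = 0.0107) in entpd5a+ against double-positive cells, a call lost without entpd5a+ library 2 (-2.23, adjusted p = 0.0517). The difference of double-positive from col9a2+ cells was -0.69 ± 0.39 (adjusted p = 0.439). With the number as a block in those 6 libraries it was -0.72 and passed (adjusted p = 0.0212), but it did not pass with the block in all 9 libraries.

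chad, whose product chondroadherin binds collagen II and integrins in mammals, was graded over the populations. It had 159, 113 and 161 CPM in entpd5a+ cells, 1113, 1628 and 1465 CPM in double-positive cells and 2814, 4664 and 3283 CPM in col9a2+ cells. No populations overlapped. chad fell by 4.63 ± 0.47 (24.8-fold, edgeR adjusted p = 0.00177) in entpd5a+ against col9a2+ cells and by 3.28 ± 0.44 (9.71-fold, adjusted p = 0.00404) in entpd5a+ against double-positive cells. The difference of double-positive from col9a2+ cells, -1.36 ± 0.41, did not pass (adjusted p = 0.118). It passed with the number as a block in those 6 libraries (-1.37, adjusted p = 0.00164), but not with the block in all 9 libraries.

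epyc, a small leucine-rich proteoglycan of the growth plate in mammals, had 211, 19.9 and 16.8 CPM in entpd5a+ cells, 411, 828 and 525 CPM in double-positive cells and 5862, 7654 and 3610 CPM in col9a2+ cells. The 3 populations did not overlap, and entpd5a+ library 1 was 12.6 times the lowest of its population. epyc fell by 6.11 ± 1.11 (69.2-fold, edgeR adjusted p = 0.0133) in entpd5a+ against col9a2+ cells, and without entpd5a+ library 1 the log2 difference was -8.28 (adjusted p = 0.00251). In double-positive against col9a2+ cells the difference was -3.28 ± 0.97 (adjusted p = 0.108). It passed with the block in those 6 libraries (-3.30, adjusted p = 0.00117), but not with the block in all 9 libraries. Without the block it also passed when entpd5a+ library 1 was left out (-3.28, adjusted p = 0.00828), a library that enters that comparison through the shared spread. In entpd5a+ against double-positive cells it was -2.83 ± 0.95 (adjusted p = 0.121), and -5.001 without entpd5a+ library 1 (adjusted p = 0.00994).

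snorc, the small membrane proteoglycan, was the member called higher in double-positive than in col9a2+ cells. It had 196, 133 and 199 CPM in entpd5a+ cells, 3391, 4965 and 2424 CPM in double-positive cells and 908, 906 and 448 CPM in col9a2+ cells. The 3 populations did not overlap. snorc fell by 4.35 ± 0.53 (20.4-fold, edgeR adjusted p = 0.00326) in entpd5a+ against double-positive cells, a call kept without each of the 9 libraries. It was 2.25 ± 0.48 log2 units higher (4.77-fold, adjusted p = 0.0326) in double-positive than in col9a2+ cells, and 2.23 higher with the number as a block (adjusted p = 0.00106). It was called higher in double-positive cells than in both single-positive populations, as were 0.872% of all genes.

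Without the block, the call for snorc in double-positive against col9a2+ cells was lost when col9a2+ library 1 (edgeR adjusted p = 0.116), 2 (0.0972) or 3 (0.117), double-positive library 1 (0.0731) or 2 (0.104) or entpd5a+ library 2 (0.0513) was left out. In entpd5a+ against col9a2+ cells snorc fell by 2.10 ± 0.48 (4.28-fold, adjusted p = 0.0354). That call was lost without col9a2+ library 1 (adjusted p = 0.126) or 2 (0.133), double-positive library 1 (0.0518) or entpd5a+ library 1 (0.0647), 2 (0.142) or 3 (0.0701), while the differences stayed between -2.37 and -1.93. The notochord markers summed highest in double-positive cells as well, mostly through col8a1a, krt18a.1 and CCN2 (means of 15230, 12120 and 11310 CPM there). Not all markers shared that order. krt18b was highest in entpd5a+ cells (333 CPM, against 50.9 CPM in double-positive and 53.0 CPM in col9a2+ cells). By mean, ntd5 and CAV1 were highest in col9a2+ cells. The part of these markers in the result was not tested.

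cnmd, which encodes chondromodulin, had 473, 101 and 153 CPM in entpd5a+ cells, 1815, 3004 and 2141 CPM in double-positive cells and 6202, 8515 and 5852 CPM in col9a2+ cells. The populations did not overlap, and entpd5a+ library 1 was again the highest of its group. cnmd fell by 4.82 ± 0.70 (28.3-fold, edgeR adjusted p = 0.00562) in entpd5a+ against col9a2+ cells, and without entpd5a+ library 1 the log2 difference was -5.75. It fell by 3.26 ± 0.65 (9.57-fold, adjusted p = 0.0176) in entpd5a+ against double-positive cells, and without entpd5a+ library 1 the difference was -4.19. That call was lost without double-positive library 2 (-3.02, adjusted p = 0.0608) or entpd5a+ library 2 (-2.89, adjusted p = 0.0607). In double-positive against col9a2+ cells the difference of -1.56 ± 0.61 did not pass (adjusted p = 0.231). It passed with the block in those 6 libraries (-1.61, adjusted p = 0.00102), but not with the block in all 9 libraries.

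otos2, the otospiralin relative, had the widest spread of the members within entpd5a+ and within col9a2+ libraries. It had 409, 16.4 and 7.70 CPM in entpd5a+ cells, 1141, 1936 and 491 CPM in double-positive cells and 10280, 19050 and 3836 CPM in col9a2+ cells. The populations did not overlap, yet entpd5a+ library 1 was 53.1 times the lowest of its group. The difference of entpd5a+ from col9a2+ cells was -6.26 ± 1.58, just outside the threshold (edgeR adjusted p = 0.0519). It was -9.84 and passed without entpd5a+ library 1 (adjusted p = 0.0046), and was -5.61 without col9a2+ library 2. In double-positive against col9a2+ cells the difference was -3.22 ± 1.37 (adjusted p = 0.277), and -2.57 without col9a2+ library 2. It was -3.18 with the block in those 6 libraries and passed there (adjusted p = 0.000585), but did not pass with the block in all 9 libraries. The block takes in the split by depth and hsp70l, for which otos2 was itself called (below). In entpd5a+ against double-positive cells the difference was -3.04 ± 1.35 (adjusted p = 0.238), and -6.63 without entpd5a+ library 1 (adjusted p = 0.0133). The 7 markers of inner-ear cells summed to 3.21 to 4.86 CPM in entpd5a+ cells, 0.850 to 7.14 CPM in double-positive cells and 8.06 to 26.6 CPM in col9a2+ cells, with 3 of them at 0 in all double-positive libraries. The sum came mostly from stm (means of 2.296, 2.788 and 14.4 CPM in that order). By mean, OTOP1 and TECTA were highest in entpd5a+ cells and the others in col9a2+ cells. None of the 6 markers tested was called in any comparison, and their part in the result was not tested.

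The members were also compared between the 4 deeper and the 5 shallower libraries with population held in the fit, a comparison added after the data were seen. otos2 differed by -2.88 ± 0.69 on the log2 scale for deeper minus shallower libraries (edgeR adjusted p = 0.0337). It was lower in the deeper libraries within all 3 populations, with 16.4 and 7.70 CPM against 409 CPM in entpd5a+ cells, 491 CPM against 1141 and 1936 CPM in double-positive cells and 3836 CPM against 10280 and 19050 CPM in col9a2+ cells. It was the 1 member of 10 that passed, against 9.74% of all genes. matn1 differed by -2.62 (adjusted p = 0.0765) and epyc by -1.56 (adjusted p = 0.132), while matn4 (0.47) and comp (0.50) had positive differences and did not pass. In entpd5a+ cells the shallower side was library 1 alone, the library with the most COL9A2 of its population. Depth, heat-shock level and COL9A2 level therefore cannot be told apart there, and these values are not separate from those given above for that library. With depth group as a term, otos2 and matn1 were called in entpd5a+ minus col9a2+ (-6.62, adjusted p = 0.00605, and -4.42, adjusted p = 0.0374).

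**Figure D4:**
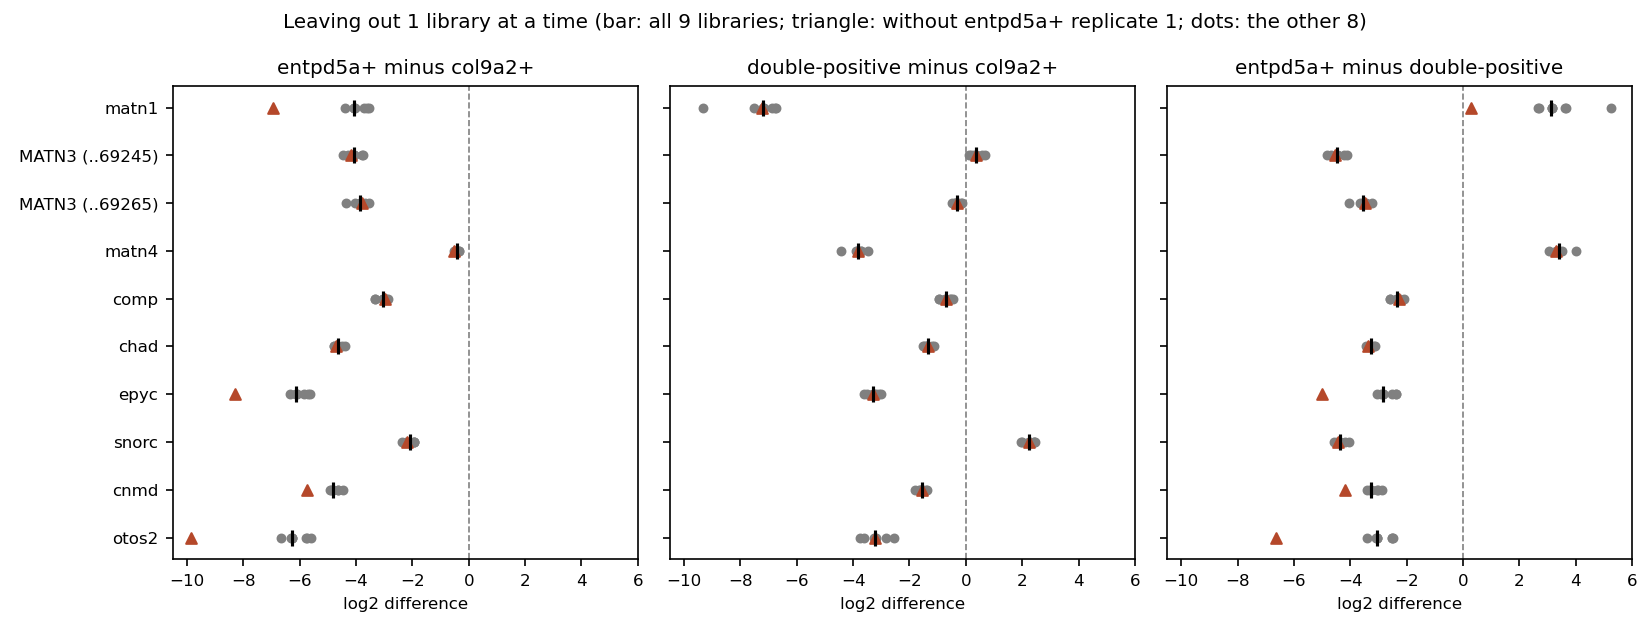
Log2 differences of the 10 members with all 9 libraries (bar), without entpd5a+ library 1 (triangle) and without each other library (dots). In entpd5a+ minus col9a2+, the triangles of matn1 (-6.94), epyc (-8.28), cnmd (-5.75) and otos2 (-9.84) lie apart from the dots, while those of both MATN3 genes, matn4, comp, chad and snorc do not.

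Set side by side, 6 members were called lower in entpd5a+ cells than in both other populations: both MATN3 genes, comp, chad, snorc and cnmd. Such a pattern was called in 1.28% of all genes. No member was called highest in col9a2+ cells against both others, a pattern of calls found in 0.536% of all genes. The means of matn1, matn4, chad, epyc, cnmd and otos2 were highest there and no library overlapped. The share of all genes separated in that way from both populations was not counted, so this has no background to be set against. No member was called lower at both steps from col9a2+ through double-positive to entpd5a+ cells, as were 0.0105% of all genes. Within populations, matn1, epyc, cnmd and otos2 shared their highest entpd5a+ value in library 1, whereas both MATN3 genes, comp, chad and snorc were highest in library 3 and matn4 in library 1 by a 1.35-fold range.

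Genes of the cartilage fibril were next counted in the same 3 comparisons. These and the related lists were also chosen with earlier results of these data known. For these and the related lists below, the shares of all genes called in either direction were 5.02% (entpd5a+ against col9a2+), 3.54% (double-positive against col9a2+) and 6.51% (entpd5a+ against double-positive). Of 9 genes of collagens II, IX and XI, the fibrils that matrilins and COMP bind, 5 fell and 1 rose in entpd5a+ against col9a2+ cells, 4 fell and none rose in double-positive against col9a2+ cells, and 2 rose and none fell in entpd5a+ against double-positive cells. Their median log2 differences were -3.42, -3.21 and 0.13. COL2A1 (ENSDARG00000069093), a collagen II chain, averaged 471 ± 584 CPM in entpd5a+ cells, 3390 ± 1720 CPM in double-positive cells and 38190 ± 11180 CPM in col9a2+ cells (SD, n = 3 each). It fell by 6.34 ± 1.12 in entpd5a+ against col9a2+ cells (edgeR adjusted p = 0.0121). The difference was -8.14 without entpd5a+ library 1, and the call was lost without entpd5a+ library 2 (adjusted p = 0.0563). The second gene of that name, COL2A1 (ENSDARG00000011407), averaged 272 ± 81.5 CPM in entpd5a+ cells, 26.2 ± 20.1 CPM in double-positive cells and 486 ± 63.5 CPM in col9a2+ cells. Its minimum was in double-positive cells, as for matn4, with differences of -4.21 from col9a2+ cells (adjusted p = 0.0126) and of 3.38 for entpd5a+ minus double-positive cells (adjusted p = 0.0189). These were -4.87 and 4.03 without double-positive library 3, and the second call was lost without double-positive library 1 or entpd5a+ library 2 (adjusted p = 0.0568 in both).

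Of the other collagen genes, COL9A2, a collagen IX chain and the sorted gene, fell by 5.66 ± 0.89 in entpd5a+ against col9a2+ cells (edgeR adjusted p = 0.00729), with a difference of -7.12 without entpd5a+ library 1. The sort itself selects for this difference, so the test of COL9A2 adds no support, although the gene is among the 5 counted above as falling. col9a1b, another collagen IX chain, fell by 6.67 (adjusted p = 0.0139), differed by -8.79 without entpd5a+ library 1, and was not called without entpd5a+ library 2 (0.0618). For both genes entpd5a+ library 1 was the highest of its population, as for matn1, epyc, cnmd and otos2.

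Aggrecan, the large proteoglycan whose aggregates matrilins join to collagen, followed the order of cnmd in acanb. Of the 5 tested of 8 aggrecan, link protein and versican genes, 1 rose and 2 fell in entpd5a+ against col9a2+ cells, 1 fell in double-positive against col9a2+ cells and 2 fell in entpd5a+ against double-positive cells, with medians of -3.04, -1.62 and 1.06. acanb averaged 3.45 ± 3.17 CPM in entpd5a+ cells, 40.2 ± 9.98 CPM in double-positive cells and 124 ± 50.7 CPM in col9a2+ cells. It fell by 5.17 in entpd5a+ against col9a2+ cells (edgeR adjusted p = 0.00412) and by 3.55 against double-positive cells (adjusted p = 0.0118), with differences of -6.25 and -4.63 without entpd5a+ library 1. acana fell by 3.04 in entpd5a+ against col9a2+ cells (adjusted p = 0.0167, lost without col9a2+ library 1, 0.0547, or entpd5a+ library 2, 0.0511) and by 3.45 against double-positive cells (adjusted p = 0.0103). The link protein gene HAPLN3 was 3.94 log2 units higher in entpd5a+ than in col9a2+ cells (adjusted p = 0.0191), at 6.96 ± 1.33 CPM and 0.453 ± 0.333 CPM. It was 4.60 higher without col9a2+ library 2, and the call was lost without col9a2+ library 3 or entpd5a+ library 2 or 3 (adjusted p up to 0.0789). vcanb, a versican gene, fell by 4.52 in double-positive against col9a2+ cells (adjusted p = 0.0269). Its difference was -6.22 without double-positive library 3, and it was not called without col9a2+ library 1, 2 or 3 or double-positive library 2 (adjusted p up to 0.0982).

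Of 4 genes of the Sox trio that drives cartilage matrix genes, 2 fell in entpd5a+ against col9a2+ cells, 2 fell in double-positive against col9a2+ cells, and 1 rose and 1 fell in entpd5a+ against double-positive cells, with medians of -1.45, -1.83 and -0.41. SOX9 (ENSDARG00000043923) averaged 9.11 ± 5.38 CPM in entpd5a+ cells, 37.1 ± 4.55 CPM in double-positive cells and 139 ± 40.1 CPM in col9a2+ cells. It fell by 3.93 in entpd5a+ against col9a2+ cells (edgeR adjusted p = 0.004), kept without each library, and by 2.03 against double-positive cells (adjusted p = 0.0328). The second call was kept without col9a2+ library 3 or entpd5a+ library 3 and lost without any of the other 7 libraries (adjusted p up to 0.0849). SOX9 (ENSDARG00000003293), the other gene of that name, averaged 38.7, 53.7 and 53.5 CPM in entpd5a+, double-positive and col9a2+ cells. Its libraries overlapped in all 3 comparisons and none was called. It differed by -0.47 (entpd5a+ minus col9a2+, edgeR adjusted p = 0.743), 0.0045 (double-positive minus col9a2+, 0.998) and -0.47 (entpd5a+ minus double-positive, 0.68). SOX5 fell by 2.43 in entpd5a+ against col9a2+ cells (adjusted p = 0.00469) and by 2.08 in double-positive against col9a2+ cells (adjusted p = 0.0104), both kept without each library. SOX6 fell by 1.75 in double-positive against col9a2+ cells (adjusted p = 0.0212), a call lost without col9a2+ library 1, 2 or 3 or double-positive library 1 or 2 (adjusted p up to 0.0984). It was 1.57 higher in entpd5a+ than in double-positive cells (adjusted p = 0.0233), a call lost without double-positive library 1 or 2 or entpd5a+ library 2 (adjusted p up to 0.111).

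Among relatives of the members by protein family, no thrombospondin, leucine-rich repeat or von Willebrand A gene tested was called lower in entpd5a+ than in col9a2+ cells. Uncalled differences with libraries that did not overlap went both ways, as for chadlb (-1.97) and ASPN (3.78). Of the 8 thrombospondin genes, the family of comp, 1 rose in entpd5a+ against col9a2+ cells, 1 fell in double-positive against col9a2+ cells and 2 rose in entpd5a+ against double-positive cells, with medians of 1.04, -0.53 and 1.51. thbs2b averaged 49.0 ± 17.0 CPM in entpd5a+ cells, 1.83 ± 1.13 CPM in double-positive cells and 4.52 ± 2.15 CPM in col9a2+ cells, and was 3.44 log2 units higher in entpd5a+ than in col9a2+ cells (edgeR adjusted p = 0.00838) and 4.75 higher than in double-positive cells (adjusted p = 0.00349). The second difference was 5.38 without double-positive library 2, and both calls were kept without each library. THBS3 (ENSDARG00000012060) fell by 4.34 in double-positive against col9a2+ cells (adjusted p = 0.0196). Its difference was -6.11 without double-positive library 3, and it was not called without col9a2+ library 1 or 2 or double-positive library 1 (adjusted p up to 0.0618). It was 3.09 higher in entpd5a+ than in double-positive cells (adjusted p = 0.0446). That call was kept without double-positive library 3 (4.86) and lost without any of the other 8 libraries (adjusted p up to 0.121).

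Of 12 tested of 15 leucine-rich repeat genes related to chad and epyc, 3 rose in entpd5a+ against col9a2+ cells, 1 rose and 1 fell in double-positive against col9a2+ cells, and 5 rose and 1 fell in entpd5a+ against double-positive cells, with medians of 1.82, -2.35 and 2.74. BGN (ENSDARG00000017884), a biglycan gene, averaged 1068 ± 469 CPM in entpd5a+ cells, 190.0 ± 109 CPM in double-positive cells and 44.5 ± 34.0 CPM in col9a2+ cells. It was 4.58 log2 units higher in entpd5a+ than in col9a2+ cells (edgeR adjusted p = 0.00756), and 5.41 higher without col9a2+ library 1. FMOD (ENSDARG00000044895), a fibromodulin gene, had its minimum in double-positive cells, where it fell by 3.33 against col9a2+ cells (adjusted p = 0.0102), and it was 2.91 higher in entpd5a+ than in double-positive cells (adjusted p = 0.0113). Both calls were kept without each library. LUM, which encodes lumican, was 1.96 higher in entpd5a+ than in col9a2+ cells (adjusted p = 0.0445), a call kept only without double-positive library 2 or 3 (adjusted p up to 0.186 without another library). It was 2.43 higher in entpd5a+ than in double-positive cells (adjusted p = 0.0174), a call lost without double-positive library 1 or entpd5a+ library 2 (adjusted p up to 0.0515).

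optc, which encodes opticin, was highest in double-positive cells, as snorc was. It had 0, 0.578 and 1.34 CPM in entpd5a+ cells, 45.5, 40.2 and 23.7 CPM in double-positive cells and 0.236, 0.199 and 0.0801 CPM in col9a2+ cells. It was 7.76 log2 units higher in double-positive than in col9a2+ cells (edgeR adjusted p = 0.0115), a call lost without col9a2+ library 1 (0.0562) or 2 (0.0584). It fell by 5.82 in entpd5a+ against double-positive cells (adjusted p = 0.0175), a call lost without double-positive library 2 (0.0528) or entpd5a+ library 2 (0.0768). Without entpd5a+ library 3 the second difference was -6.89.

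Of 4 matrix genes with von Willebrand A domains as in matrilins, none passed in entpd5a+ against col9a2+ cells, 1 fell in double-positive against col9a2+ cells and 2 rose in entpd5a+ against double-positive cells, with medians of 0.04, -4.31 and 4.06. VIT, which encodes vitrin, averaged 48.2 ± 13.5 CPM in entpd5a+ cells, 4.84 ± 2.93 CPM in double-positive cells and 52.4 ± 13.2 CPM in col9a2+ cells. It fell by 3.43 in double-positive against col9a2+ cells (edgeR adjusted p = 0.00697) and was 3.31 log2 units higher in entpd5a+ than in double-positive cells (adjusted p = 0.00639), both kept without each library. vwa1 was 3.25 higher in entpd5a+ than in double-positive cells (adjusted p = 0.0308), 3.95 higher without double-positive library 1, and not called without double-positive library 2 or 3 or entpd5a+ library 2 or 3 (adjusted p up to 0.0832).

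The list of 9 other small cartilage proteins included TNMD, which was also counted as a tendon marker. Of these 9 genes, 1 (TNMD) rose and 1 fell in entpd5a+ against col9a2+ cells. In double-positive against col9a2+ cells 1 fell. In entpd5a+ against double-positive cells 2 rose, TNMD among them, and 1 fell. The medians were -1.08, -1.69 and 1.69. UCMA, a Gla protein of cartilage, averaged 70.09 ± 81.2 CPM in entpd5a+ cells, 603 ± 314 CPM in double-positive cells and 3518 ± 1881 CPM in col9a2+ cells. It fell by 5.65 in entpd5a+ against col9a2+ cells (edgeR adjusted p = 0.0116), with a difference of -7.24 without entpd5a+ library 1. TNMD, which encodes tenomodulin, the closest relative of chondromodulin, was highest in entpd5a+ cells, where cnmd was lowest. It had 824 ± 307 CPM in entpd5a+ cells, 98.1 ± 47.6 CPM in double-positive cells and 87.8 ± 57.8 CPM in col9a2+ cells. Unlike cnmd, TNMD overlapped between double-positive and col9a2+ cells (log2 difference of 0.16, edgeR adjusted p = 0.956). It was 3.23 log2 units higher in entpd5a+ than in col9a2+ cells (adjusted p = 0.0188) and 3.89 higher without col9a2+ library 3, and the call was lost without col9a2+ library 1 or 2 or entpd5a+ library 2 (adjusted p up to 0.092). It was 3.07 higher in entpd5a+ than in double-positive cells (adjusted p = 0.0196), a call lost without double-positive library 2 or entpd5a+ library 2 (adjusted p up to 0.0697). mgp, the matrix Gla protein gene, fell by 3.50 in entpd5a+ against double-positive cells (adjusted p = 0.011, lost without entpd5a+ library 2, 0.0517). ucmaa, the second gene of that Gla protein, fell by 5.85 in double-positive against col9a2+ cells (adjusted p = 0.0283), a call lost with the number as a block (-5.53, adjusted p = 0.0844) and without col9a2+ library 1 (-5.12) or 3 or double-positive library 1 or 2 (adjusted p up to 0.0997). Without double-positive library 3 that difference was -6.68. ucmaa was 4.51 higher in entpd5a+ than in double-positive cells (adjusted p = 0.0448), a call kept only without col9a2+ library 2 (adjusted p up to 0.141 without another library); the difference was 5.33 without double-positive library 3 and 3.75 without entpd5a+ library 1.

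With the number as a block in the 6 double-positive and col9a2+ libraries, 8 of 9 collagen genes fell in double-positive against col9a2+ cells, the sorted gene COL9A2 among them. So did 2 of 5 aggrecan, link protein and versican genes and 3 of 4 Sox genes. In that fit 2 of 8 thrombospondin genes, 2 of 11 leucine-rich repeat genes, 2 of 3 von Willebrand A genes and 4 of 9 other small cartilage proteins fell. There 2 leucine-rich repeat genes and 1 other small cartilage protein gene rose. Of all genes in that fit, 12.7% were called in either direction. Over the 7 related lists, 7 of 17 calls in entpd5a+ against col9a2+ cells, 4 of 12 in double-positive against col9a2+ cells and 5 of 19 in entpd5a+ against double-positive cells were kept without each of the 9 libraries in turn. Tendon, fibroblast and sclerotome markers, given above and with TNMD among them, were highest in entpd5a+ cells, as was BGN (ENSDARG00000017884), and their part in these results was not tested.

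**Figure D5:**
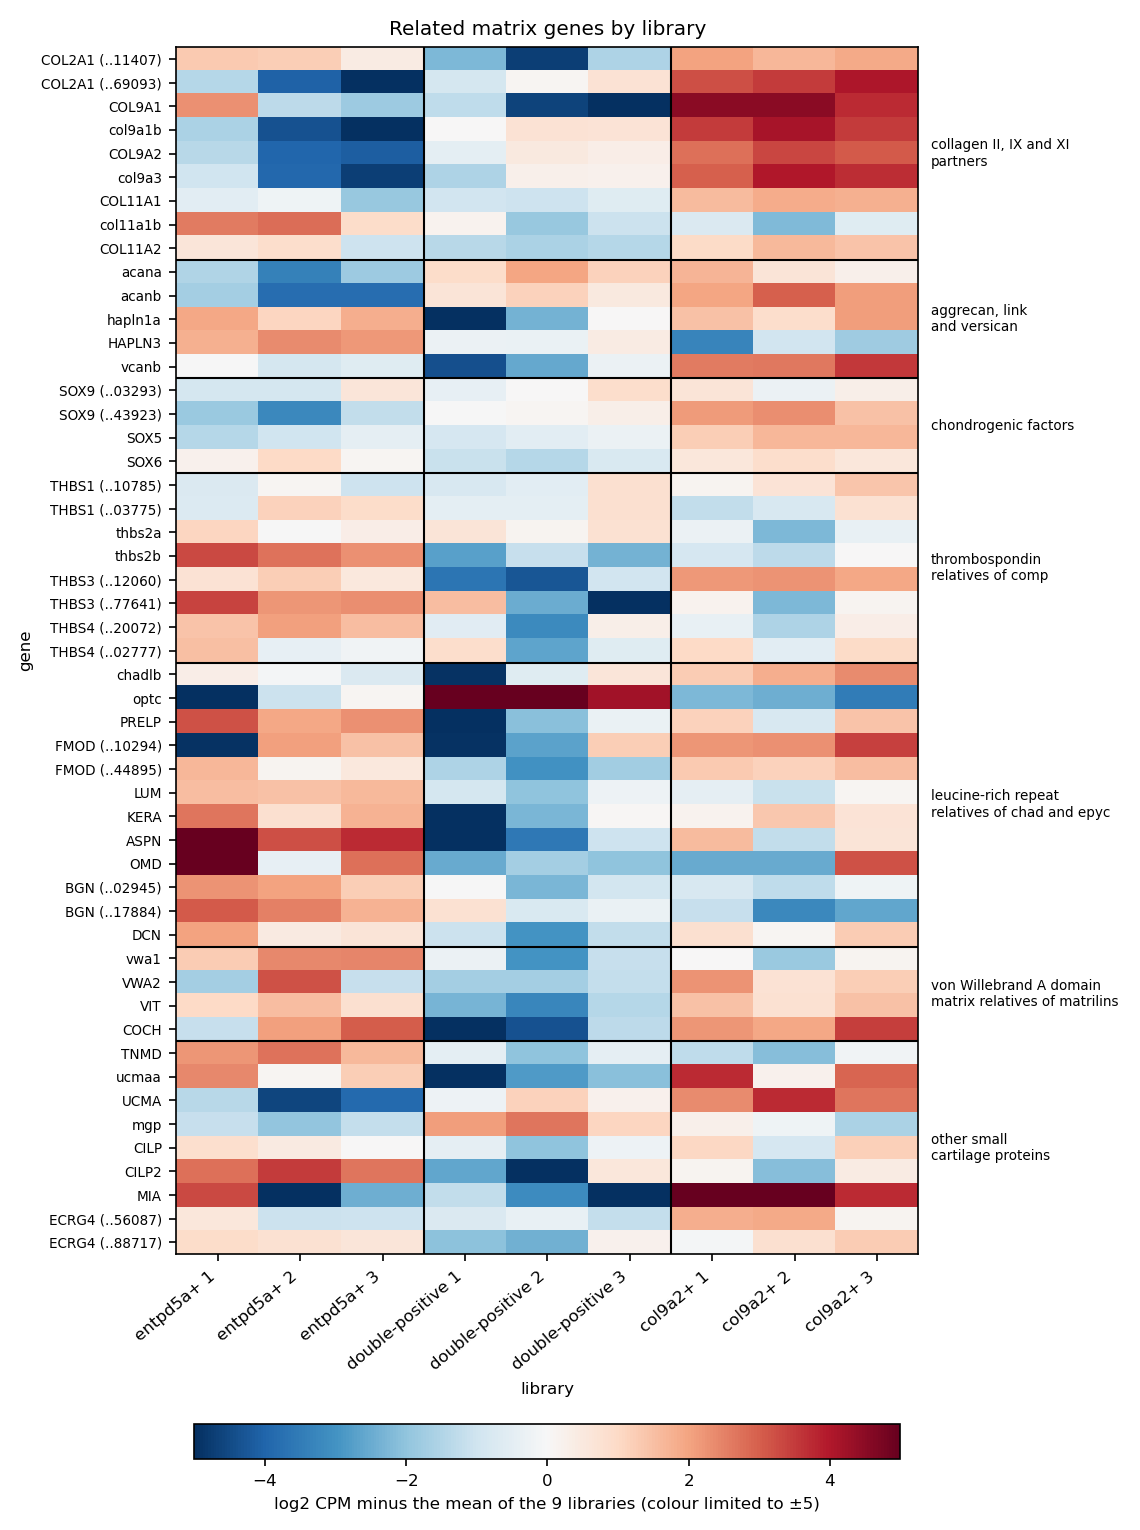
Log2 CPM of the related matrix genes in each of the 9 libraries, minus the gene's mean over the libraries, with colour limited to 5 log2 units either way. The collagen II and IX block is highest in the col9a2+ columns, the thrombospondin and leucine-rich repeat blocks hold many genes that are highest in the entpd5a+ columns, and VIT and FMOD (ENSDARG00000044895) are lowest in the double-positive columns.

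The genes whose log2 CPM followed each member most closely were sought among the 8216 genes whose mean level reached 10 CPM. Because the 9 libraries form 3 populations, these Pearson r values describe a shared pattern over populations and carry no test. The nearest genes were COL9A1 (0.982) and tnxba (0.978) for matn1, pth3r (0.992) and vgll2b (0.992) for MATN3 (ENSDARG00000069245), and krt15 (0.990) and tbx3b (0.982) for MATN3 (ENSDARG00000069265). For matn4 they were ANGPTL1 (0.994) and VIT (0.992), which is also one of its von Willebrand A relatives. For comp they were tbc1d12b (0.988) and IGLON5 (0.987), for chad CPXM1 (ENSDARG00000098158, 0.991) and CYP27C1 (0.990), and for epyc COL9A2 (0.994) and ccn6 (0.994). For snorc they were GNPDA1 (0.994) and ABHD16A (0.992), for cnmd acanb (0.996) and si:dkey-234i14.3 (0.995), and for otos2 prss23 (0.985) and serpinh2 (0.978).

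COL9A1, a collagen IX chain, had 110, 9.04 and 6.47 CPM in entpd5a+ cells, 9.31, 0.885 and 0.324 CPM in double-positive cells and 522.5, 520.5 and 298 CPM in col9a2+ cells, with library 1 the highest of each population as for matn1. ANGPTL1 had 23.1, 20.3 and 17.5 CPM in entpd5a+ cells and 1.16, 0.859 and 4.202 CPM in double-positive cells, the minimum that matn4 and VIT share. pth3r, which encodes a parathyroid hormone receptor, had 7.61, 2.59 and 5.495 CPM in entpd5a+ cells and 60.4, 104.5 and 102.3 CPM in double-positive cells, low where MATN3 (ENSDARG00000069245) was low.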

How the data were processed

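Total RNA of 9 sorted libraries was sequenced from low-input Clontech libraries, per the labels. Gene counts were deposited by the authors as raw HTSeq counts over HISAT2 alignments to GRCz10, per the submitters' processing notes; versions and strand setting are not given in the sources used here. The tables hold gene rows alone, so no share of unassigned reads is given. Names came from Ensembl and RefSeq name tables. The members and gene lists were chosen with earlier results of these data known.

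Genes passing filterByExpr (19039) were normalised by TMM and fitted with edgeR 4.0.16 (robust quasi-likelihood, 1 coefficient per population, all 9 libraries, R 4.3.3). Genes were called at an adjusted p (Benjamini-Hochberg, all tested genes) under 0.05. Standard errors were the log2 difference divided by the root of F, and log2 CPM used a prior count of 2. The code was tested on simulated counts. Named genes were all members, at most 4 called genes per related list with the smallest adjusted p, and the closest pair of genes per member by Pearson r. A few uncalled relatives were named beside them. Same-numbered double-positive and col9a2+ libraries correlated in their deviations (r = 0.181, 0.219 and 0.332), taken from the data and not from the labels, so blocked values are given for that comparison. Other scalings, filters, fits, DESeq2 1.42.0 and each library left out were alternatives. No sequences are shown.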

Additional observations from a re-analysis of the deposited data

How the results depend on the processing

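Of 570 values of single members in single comparisons under an alternative, 505 kept both direction and call, 31 lost a call, 34 gained one and 0 changed direction. Leaving out 1 library at a time, members called ranged over 6 to 8 (entpd5a+ minus col9a2+), 1 to 4 (double-positive minus col9a2+), 5 to 9 (entpd5a+ minus double-positive) and 8 to 10 (F test), and all genes called over 353 to 994, 242 to 787 and 525 to 1064 in those 3 comparisons. DESeq2 called 2162, 2026 and 2874 genes in them, against 955, 674 and 1240 by edgeR, and 7 members in double-positive minus col9a2+. With the replicate block there, 8 members and 2228 genes were called in the 6 libraries. In all 9 libraries the block called 1024 genes and the same members as the fit without it. With depth group as a term, 5 members and 1314 genes were called. In the 6-library fit, entpd5a+ minus double-positive called 758 genes. Same-numbered entpd5a+ libraries correlated unevenly with the others (r = 0.205, -0.106 and 0.198 with col9a2+, 0.13, -0.103 and 0.148 with double-positive). Of the libraries numbered 2, that of entpd5a+ was deeper and the others shallower. There the block in 6 libraries called matn1 (-5.47, adjusted p = 0.0131) and otos2 (-8.22, adjusted p = 0.0171) and lost snorc (adjusted p = 0.0555) in entpd5a+ minus col9a2+, and called matn1 in entpd5a+ minus double-positive (2.68, adjusted p = 0.0207). The 5 shallower libraries alone, chosen after seeing the data, leave 1 entpd5a+ library, assumed to vary like the rest: 3 members and 202 genes were called in entpd5a+ minus col9a2+ and 3 members and 455 genes in entpd5a+ minus double-positive. The cause of these shifts was not tested. The common dispersion of 0.588 limits what 3 libraries per population can show.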
